A study of Bos taurus with 6 samples.

Results

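The bovine miRNAs miR-143, miR-145, miR-199a, miR-199b, miR-199c, miR-214 and miR-3604 were followed in intramuscular fat (IMF) of steers and bulls. Members were taken by name from the miRNA counts, with either arm of a hairpin accepted. The names gave 8 members of 8800 listed sequences, of which 793 were known bovine miRNAs, 5276 were predicted and 2731 were miRNAs of other species. The members were bta-miR-143, bta-miR-145, bta-miR-199a-5p, bta-miR-199a-3p, bta-miR-199b, bta-miR-199c, bta-miR-214 and bta-miR-3604.

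The study asked how castration alters gene regulation in IMF of Chinese Qinchuan cattle. The steers were males weaned at 3 months, castrated by surgery at 6 months and sampled at 24 months, and the bulls were intact males of the same age that had also been weaned at 3 months. The animals had one sire and one diet, and the fat came from the sternomandibularis muscle of the neck. Small RNA was sequenced in 2 libraries per group and mRNA in 1 library per group. The series text gives pools of 3 animals for each miRNA library and 6 for each mRNA library, whereas the sample labels give 1 and 3. Either way, the p-values for miRNAs rest on the spread between libraries, and the number of animals behind a library is uncertain. In the edgeR test used below, this spread is estimated partly from all tested sequences together. Its p-values and SEs therefore do not measure the spread between a member's own 2 libraries per group alone.

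A miRNA is cut from a hairpin and guides silencing complexes to mRNAs that pair with its seed, the bases 2 to 8 from its 5′ end. In many tissues miR-143 and miR-145 are made from one primary transcript and are abundant in smooth muscle cells, pericytes and fibroblasts, where they are known for regulating smooth muscle identity. In adipocytes miR-143 is known as a miRNA that promotes differentiation. The miR-199a and miR-214 hairpins lie on the strand opposite to a dynamin gene in a shared transcript driven by TWIST1, and both miRNAs are known from mesenchymal cells and fibrosis.

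The mature sequences are shown here because sequence sharing between members decides which of their counts can be read separately. Each is written 5′ to 3′ with its seed in capitals, as listed in the study's supplementary data.
miR-143: tGAGATGAagcactgtagctcg
miR-145: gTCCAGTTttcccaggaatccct
miR-199a-5p: cCCAGTGTtcagactacctgtt
miR-199b: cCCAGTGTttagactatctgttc
miR-199a-3p: aCAGTAGTctgcacattggtta
miR-199c: tACAGTAGtctgcacattgg
miR-214: aCAGCAGGcacagacaggcagt
miR-3604: tAACCAATgtgcagactactgt
The 8 members carried 7 different seeds. Only miR-199a-5p and miR-199b shared one, CCAGTGT, and over their first 22 bases they differed at 2 positions, C10T and C17T, with positions counted from the 5′ end and the base of miR-199a-5p given first. The seed of miR-214, CAGCAGG, was also that of miR-761, which is not a member, and the other 5 seeds were found in no further known bovine miRNA with a listed sequence.

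The miR-199a-3p sequence also ran through 2 other members. Its first 19 bases were contained in miR-199c, which starts 1 base earlier and so has another seed. The shared run is given in capitals in both.
miR-199a-3p: ACAGTAGTCTGCACATTGGtta
miR-199c: tACAGTAGTCTGCACATTGG
The whole of miR-3604, all 22 bases, was the reverse complement of miR-199a-3p. In the RefSeq annotation of the ARS-UCD2.0 assembly, used for names and neighbours, MIR3604-1 overlapped MIR199A-2 within DNM2 and MIR3604-2 overlapped MIR199B within DNM1. MIR199A-1 and MIR214 lay next to each other in DNM3 and within a long noncoding RNA, and MIR214 overlapped MIR3120. MIR143 and MIR145 were direct neighbours within another long noncoding RNA, between IL17B and CSNK1A1, and MIR199C lay within NUP88. Both miR-199a arms were assigned to the 2 miR-199a hairpins, and the overlap of MIR3604-2 with MIR199B places the miR-199a-3p sequence in the miR-199b hairpin as well. Counts of miR-199a-5p therefore cannot be split between DNM2 and DNM3, nor those of miR-199a-3p between DNM1, DNM2 and DNM3.

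Depth did not limit these members, since the total was 10452582 and 8859844 counts for the steers libraries and 7784227 and 6556511 for the bulls libraries, and the rarest member, miR-199c, had at least 823 counts in every library. The scale did matter. The members took 26.4% and 14.9% of all counts in the steers libraries and 17.7% and 13.7% in the bulls libraries. Most of it was miR-143, with 94.2% and 88.4% of the members' counts in steers and 79.4% and 65.9% in bulls. Levels are therefore given as counts-per-million (CPM) after scaling by trimmed mean of M-values (TMM CPM), which assumes that most sequences do not differ, with factors of 0.746 and 0.968 for steers and 0.972 and 1.42 for bulls. Libraries of the same group thus differed in composition. The edgeR quasi-likelihood test was run on all 1073 sequences that passed its filter on low counts, and a sequence was called at a Benjamini-Hochberg adjusted p under 0.05 with an absolute log2 fold change over 1. All 8 members passed the filter.

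Of the 8 members, miR-143 alone was called, as higher in steers, against a background of 14.2% of the tested sequences called (7.08% higher and 7.08% lower). Its libraries overlapped between the groups. The miR-199 and miR-214 members pointed the other way. In 5 of them (miR-199a-3p, miR-199b, miR-199c, miR-214 and miR-3604) both steers libraries lay below both bulls libraries, a pattern seen in 31.5% of all tested sequences, and none was called. These 5 are not separate measurements, since miR-3604 is the reverse complement of miR-199a-3p and miR-199c shares a run of 19 bases with it. In no member did both steers libraries lie above both bulls libraries (26.7% of all tested), and groups that did not overlap in either direction made up 58.2% of all tested. The median log2 fold change was -0.50 over the 8 members, with miR-199a-3p and miR-3604 both counted, and -0.07 over all tested sequences. In a bulk tissue, fewer cells of a type and less RNA per cell cannot be told apart.

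**Figure D1:**
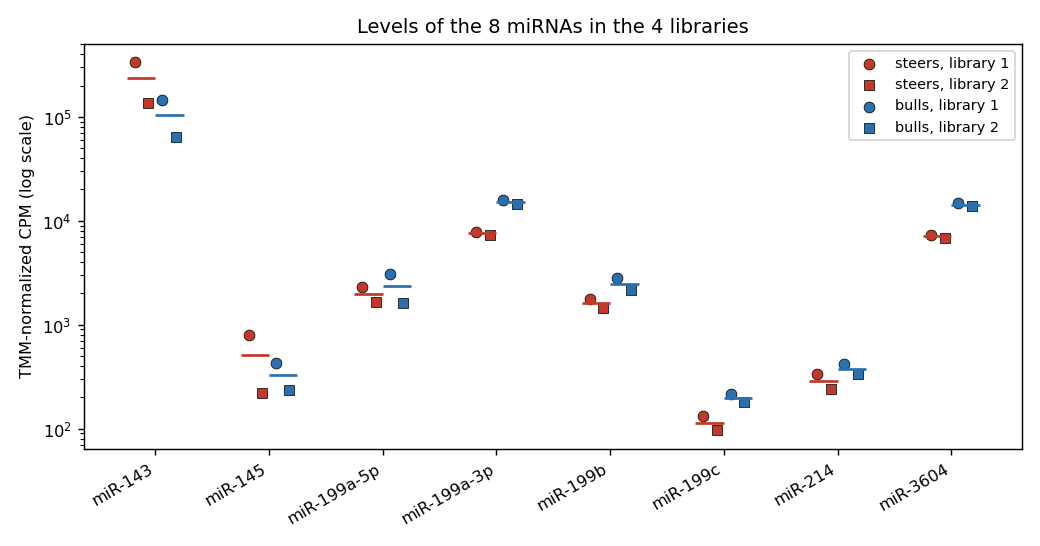
Level of each of the 8 miRNAs in each library, as TMM CPM on a log axis, with circles for library 1, squares for library 2, steers in red, bulls in blue and a line at each group mean. The miR-143 points span from 63300 to 334203 with the groups overlapping, while the 2 steers points of miR-199a-3p and of miR-3604 sit together below the 2 bulls points.

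The most abundant member was miR-143. Its counts were 2604391 and 1163658 in the steers libraries against 1092668 and 590439 in the bulls libraries, and it ranked first or second of all sequences in every library. After scaling these were 334203 and 135880 TMM CPM in steers (mean 235041 ± 140235, SD, n = 2) and 144533 and 63300 in bulls (103916 ± 57441, n = 2). The first library of each group was the higher one, and the second steers library lay below the first bulls library. The log2 fold change of steers over bulls was 1.18 (SE 0.40, edgeR adjusted p = 0.0321). The 2 steers libraries differed from each other by 1.30 on the log2 scale and the 2 bulls libraries by 1.19, each at least as large as the difference between the groups. The median absolute difference between replicates was 0.39 in steers and 0.53 in bulls over the known bovine miRNAs tested.

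The call on miR-143 depended on the libraries and the scale. Without the first steers library the log2 fold change was 0.42 (edgeR adjusted p = 0.866), and without the second bulls library it was 0.67 (adjusted p = 0.152). As plain shares of all counts, miR-143 took 24.9% and 13.1% in steers and 14.0% and 9.01% in bulls, and scaling to total counts gave a log2 fold change of 0.72 (adjusted p = 0.248). DESeq2 gave 1.25 with an adjusted p of 0.103. The estimate was above 0 under each of the 15 alternatives tried and was called under 4 of them.

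The rat name rno-miR-143-3p, a further entry for this miRNA, had levels of 56.3 and 33.3 TMM CPM in steers and 26.3 and 11.5 in bulls. As CPM with the counts of miR-143 in the same library as the total, the entry stood at 169 and 245 in steers and 182 and 181 in bulls. It thus kept its proportion to the bovine one between the bulls libraries but not between the steers libraries. Its log2 fold change was 1.25 (SE 0.48, edgeR adjusted p = 0.0633), and it was not called. Of 12 entries of other species or predicted under these names, only one more was tested, a predicted sequence named after rno-miR-199a-5p with 10 and 13 counts in steers against 18 and 16 in bulls (log2 fold change -0.53, edgeR adjusted p = 0.610). The other 10 entries held at most 4 counts each over all libraries.

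The partner of miR-143 at the same locus, miR-145, is known for repressing KLF4 and KLF5 in smooth muscle cells. Steers gave 6258 and 1889 counts of it and bulls 3202 and 2184, which were 803 and 221 TMM CPM in steers (512 ± 412, n = 2) and 424 and 234 in bulls (329 ± 134, n = 2). The first steers library was the highest, the second was the lowest of all 4, and the groups overlapped. Its log2 fold change was 0.64 (SE 0.50, edgeR adjusted p = 0.415), and it was -0.54 without the first steers library. Over the 4 libraries the log2 levels of miR-143 and miR-145 had a Pearson correlation of 0.86, given as a description of 4 points that share their library scaling.

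A ratio of counts within a library needs no scaling between libraries. There were 416 and 616 counts of miR-143 for each count of miR-145 in the steers libraries and 341 and 270 in the bulls libraries. Both steers ratios were above both bulls ratios. The geometric means differed 1.67-fold (log2 difference 0.74, or 0.45 without the second steers library), and the exact permutation test (two-sided) gave p = 0.333, the smallest that 2 libraries against 2 allow, or 0.467 adjusted over the 7 ratios examined.

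The 3′ arm of miR-199a was the second most abundant member. miR-199a-3p is known as a mesenchymal miRNA with targets that include MTOR, MET and CD44. The steers libraries held 60574 and 62715 counts of it and the bulls libraries 118650 and 134684. These were 7773 and 7323 TMM CPM in steers (7548 ± 318, n = 2) and 15694 and 14439 in bulls (15067 ± 888, n = 2). Both steers libraries were far below both bulls libraries. Replicates of a group lay close together after scaling, with log2 differences of 0.09 in steers and 0.12 in bulls. Without the TMM factors they lay further apart, at 5795 and 7079 CPM in steers and 15242 and 20542 in bulls. The log2 fold change was -0.997 (SE 0.45), with an unadjusted p of 0.0283 and an adjusted p of 0.127 in the edgeR test, in which 27.3% of all tested sequences had an unadjusted p under 0.05. Under the 15 alternatives the estimate stayed between -1.48 and -0.75.

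The counts of miR-3604 followed those of miR-199a-3p almost exactly. It was counted 56949 and 58835 times in steers against 112187 and 129109 times in bulls, or 7308 and 6870 TMM CPM in steers (7089 ± 310, n = 2) and 14840 and 13841 in bulls (14341 ± 706, n = 2). The ratio of miR-199a-3p to miR-3604 was 1.06 and 1.07 in steers and 1.06 and 1.04 in bulls. The log2 fold change of miR-3604 was -1.02 (SE 0.46, edgeR adjusted p = 0.121), and the Pearson correlation of the pair over the 4 libraries was 1.00.

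Near-equal counts were not particular to this pair of complementary sequences. Among known bovine miRNAs, 9 pairs in which 1 sequence lay within the reverse complement of the other had at least 1000 counts in either member. The pairs let-7b with miR-3596, miR-152 with miR-2957, miR-22-3p with miR-3600 and miR-6529a with miR-6529b also had near-equal counts. let-7b had 97817 counts over the 4 libraries and miR-3596 had 97775, and miR-22-3p had 1196926 against 1195627 for miR-3600. In other pairs the counts were unequal, as for miR-26a, whose count was 2.0 to 2.01 times that of miR-26c in each library. How reads that match 2 entries on opposite strands were counted is not given in the sources used here. The counts of miR-199a-3p and miR-3604 therefore cannot be read as separate measurements, and together they give 1 observation of the 2-strand sequence.

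**Figure D2:**
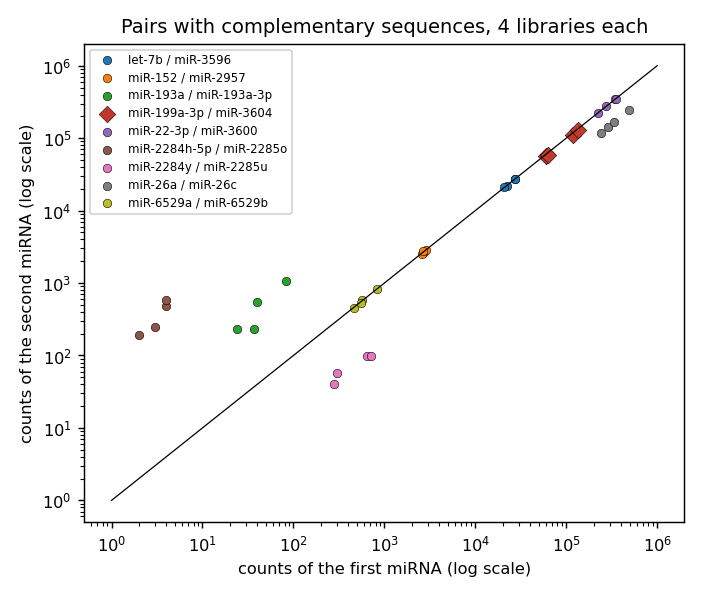
Counts of both members of the 9 pairs of known bovine miRNAs with complementary sequences, both axes on a log scale, with 1 point per library and a line where the counts are equal. The red diamonds of miR-199a-3p and miR-3604 lie just under the line, as 4 other pairs lie on it, whereas miR-26a and miR-26c lie below it and the 3 remaining pairs far from it.

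The 5′ arm of miR-199a gave another picture than the 3′ arm. miR-199a-5p, known for targets such as HIF1A, SIRT1 and CAV1, was counted 18134 and 14072 times in steers against 23076 and 15040 times in bulls. These were 2327 and 1643 TMM CPM in steers (1985 ± 484, n = 2) and 3052 and 1612 in bulls (2332 ± 1018, n = 2). The second bulls library was the lowest of all 4, so the groups overlapped. Its log2 fold change was -0.23 (SE 0.48, edgeR adjusted p = 0.784), and its sign turned when the second steers library (0.02) or the first bulls library (0.49) was left out. Without the TMM factors, its CPM of 1735 and 1588 in steers were both below 2964 and 2294 in bulls.

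The ratio of the arms was compared within each library, although miR-199a-3p may also be cut from the miR-199b hairpin, whose 5′ arm is counted as miR-199b. There were 3.34 and 4.46 counts of miR-199a-3p for each count of miR-199a-5p in steers and 5.14 and 8.96 in bulls. Both steers libraries had a lower ratio than both bulls libraries, by 1.76-fold between geometric means, with p = 0.333 in the exact permutation test, again the smallest possible, and 0.467 after adjustment. The log2 difference of -0.81 was -0.41 without the second bulls library, -1.21 without the first bulls library and -0.60 with miR-199b added to the 5′ arm. Of the 34 known hairpins with both arms tested, 20 (58.8%) had arm ratios that did not overlap between the groups, and 15 had a larger absolute difference than miR-199a. The arm ratio of miR-199a thus sat well within the range of other hairpins. Any reads of the miR-3604 strand counted under miR-199a-3p enter this ratio.

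miR-199b, which has the same seed as miR-199a-5p, was counted 13912 and 12337 times in steers against 21361 and 19979 times in bulls. These were 1785 and 1441 TMM CPM in steers (1613 ± 244, n = 2) and 2826 and 2142 in bulls (2484 ± 483, n = 2). Both steers libraries lay below both bulls libraries, with a log2 fold change of -0.62 (SE 0.48, edgeR adjusted p = 0.406) that was -0.22 without the first bulls library. The ratio of miR-199b to miR-199a-5p was 0.767 and 0.877 in steers and 0.926 and 1.33 in bulls, so the second bulls library was the only one with more miR-199b than miR-199a-5p. The exact permutation p of this ratio was 0.333, the smallest possible. Summed over the shared seed, the 2 miRNAs held 4112 and 3084 TMM CPM in steers and 5878 and 3754 in bulls, and the groups overlapped.

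The least abundant member was miR-199c, counted 1036 and 823 times in steers against 1645 and 1684 times in bulls. These were 132.9 and 96.1 TMM CPM in steers (115 ± 26.1, n = 2) and 218 and 181 in bulls (199.1 ± 26.2, n = 2), with both steers libraries lower and a log2 fold change of -0.80 (SE 0.48, edgeR adjusted p = 0.262) that was -0.47 without the first bulls library. Relative to miR-199a-3p, with which it shares all but its first base, miR-199c had 0.0171 and 0.0131 counts per count in steers and 0.0139 and 0.0125 in bulls. These ratios overlapped, and reads of the shared 19 bases cannot be assigned to one entry from the sequence alone.

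miR-214, known for targets that include EZH2 and CTNNB1, was counted 2589 and 2072 times in steers against 3154 and 3110 times in bulls. Its levels of 332 and 242 TMM CPM in steers (287 ± 63.8, n = 2) and 417 and 333 in bulls (375 ± 59.2, n = 2) nearly touched, since the first steers library stood at 332 and the second bulls library at 333. Its log2 fold change was -0.39 (SE 0.50, edgeR adjusted p = 0.640), and it was -0.03 without the first bulls library and -0.14 without the second steers library. The ratio of miR-199a-5p to its transcript partner miR-214 was 7.00 and 6.79 in steers and 7.32 and 4.84 in bulls and overlapped. The ratio of miR-199a-3p to miR-214 was 23.4 and 30.3 in steers and 37.6 and 43.3 in bulls, lower in both steers libraries by 1.52-fold, with an exact permutation p of 0.333, the smallest possible.

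**Figure D3:**
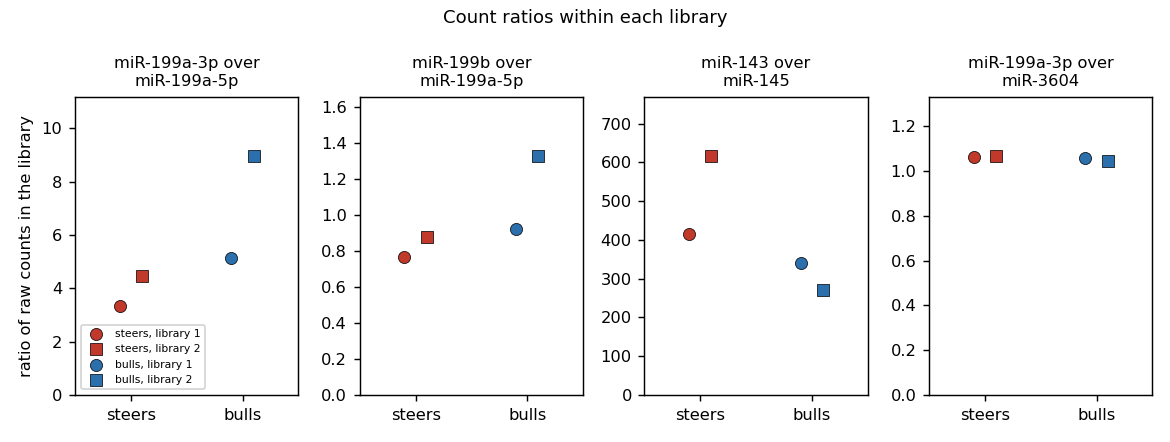
Ratios of raw counts within each library, each on its own axis from 0, with circles for library 1, squares for library 2, steers in red and bulls in blue. The steers libraries have lower ratios of miR-199a-3p to miR-199a-5p (3.34 and 4.46 against 5.14 and 8.96) and higher ratios of miR-143 to miR-145, while miR-199a-3p to miR-3604 stays between 1.04 and 1.07.

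The composition of the group of 8 differed between the libraries, as did its total. miR-143 made up 94.2% and 88.4% of the members' counts in the steers libraries against 79.4% and 65.9% in the bulls libraries. The share of all counts that fell to the other 7 members together was 1.53% and 1.72% for steers and 3.64% and 4.66% for bulls. In order of mean level in either group, miR-143 stood first, miR-199a-3p and miR-3604 next, and miR-199c last. In steers the means of miR-199a-5p (1985) and miR-199b (1613) differed by less than the SD of miR-199a-5p, while in bulls miR-199b (2484) stood above miR-199a-5p (2332), again by less than that SD. Likewise in bulls, miR-214 (375) and miR-145 (329) differed by less than the SD of miR-145.

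**Figure D4:**
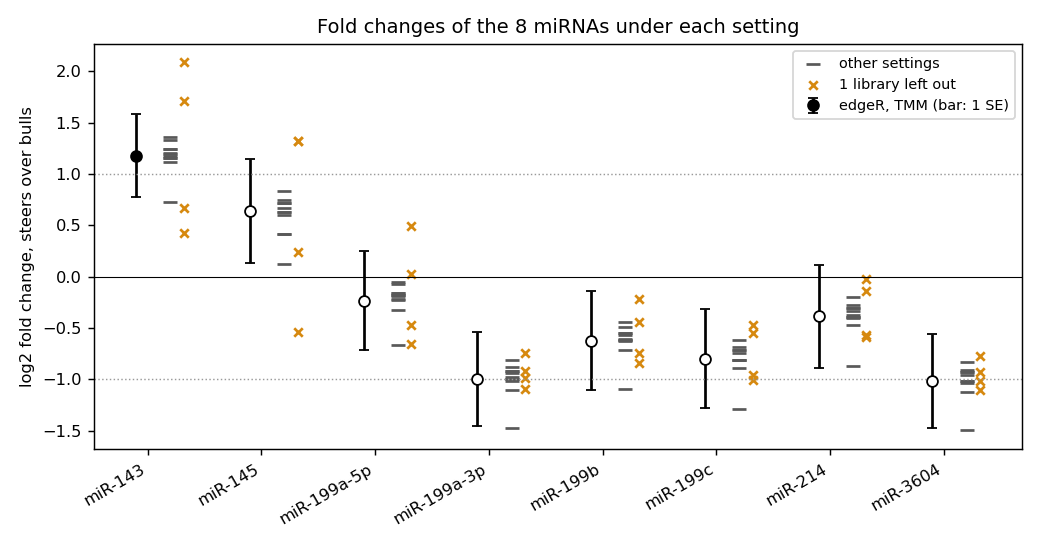
Log2 fold change of steers over bulls for each of the 8 miRNAs, with the edgeR estimate and 1 SE as a circle with a bar (filled if called), the other settings as dashes and the fits with 1 library left out as crosses. Dotted lines mark an absolute log2 fold change of 1, and the crosses of miR-143 spread from 0.42 to 2.09 while those of miR-199a-3p stay between -1.09 and -0.75.

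Outside the members, the known bovine miRNAs with levels most like those of miR-143 over the 4 libraries were miR-424-5p, miR-193a, miR-326, miR-1271 and miR-98, with Pearson correlations of log2 levels from 0.991 to 0.999. None of these 5 was called. The most abundant of them, miR-98 of the let-7 family, had 1410 and 872 TMM CPM in steers and 855 and 632 in bulls. With 4 points, correlations this high say only that these miRNAs kept the order and spacing of the libraries.

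The known miRNAs most like miR-199a-3p were miR-411c-5p, miR-2355-5p, miR-1, miR-499 and miR-487b, with correlations from 0.997 to 1.00. The first 4 of these were called lower in steers. Their direction follows from the choice by likeness to miR-199a-3p, which lay lower in both steers libraries, and is no separate result. miR-1, the muscle miRNA that promotes muscle cell differentiation, had 20.3 and 18.7 TMM CPM in steers and 57.1 and 47.3 in bulls (log2 fold change -1.42, edgeR adjusted p = 0.0279). miR-499, which lies in a slow myosin gene, had 20.1 and 20.2 in steers and 75.9 and 61.1 in bulls (log2 fold change -1.76, edgeR adjusted p = 0.00432). miR-2355-5p had 1 count in steers altogether and 18 and 19 counts in the bulls libraries, so it passed the filter on low counts through the bulls libraries alone.

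Several marker miRNAs of other cell types were also at lower levels in steers. Of all tested sequences, 7.08% were called lower in steers and 7.08% higher. Both steers libraries lay below both bulls libraries in 31.5% of them and above in 26.7%. All 6 muscle miRNAs (miR-1, miR-133a, miR-133b, miR-206, miR-208b and miR-499) were tested, 2 were called lower in steers and none higher, and their summed level was 2208 and 3377 TMM CPM in steers and 5842 and 5394 in bulls. Of 5 immune miRNAs, miR-142-5p and miR-223 were called lower, and the sum was 905 and 658 in steers against 2600 and 1365 in bulls. Of both arms of the endothelial miR-126, the 3′ arm was called lower, and the sum of 14793 and 7863 in steers overlapped 21298 and 11456 in bulls. The erythroid miRNAs went both ways, with miR-486 called higher and miR-451 lower and sums of 3401 and 7360 in steers against 2248 and 1757 in bulls. Of 6 epithelial miRNAs only miR-141 was tested and called lower, with the summed level of the list at 1.03 and 0.934 in steers and 4.63 and 3.75 in bulls. The part of these cell types in the levels of the members was not tested.

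The mRNA of the host genes, regulators and targets of these miRNAs was read from 1 pooled library per group, with 12677375 counts in steers and 9868415 in bulls. Without replicates no test of the groups exists. Log2 ratios of steers over bulls are given after median-of-ratios scaling with a prior of 0.5 counts, with 95% Clopper-Pearson intervals that cover counting error only, and a gene is past the fold at an absolute log2 ratio over 1. Of 14540 genes with at least 10 counts over both libraries, 17.8% were past the fold (6.44% higher and 11.4% lower in steers), and the median over all was 0.01. Adipocyte genes, which define the labelled tissue, were present, among them ADIPOQ (4513 and 6651 counts), which encodes the hormone adiponectin, and muscle and myeloid genes were present as well.

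Of 16 host and regulator genes listed, 10 were in the table, 9 had at least 10 counts, and none of these was past the fold (median -0.07). DNM1, the dynamin gene that holds MIR199B, had 1860 counts in steers and 960 in bulls (log2 ratio 0.83, interval 0.72 to 0.95). DNM2, which holds MIR199A-2, had 1279 and 1326 counts (log2 ratio -0.17), and DNM3, which holds MIR199A-1 and MIR214, had only 65 and 70 (log2 ratio -0.23, interval -0.74 to 0.28). The sense mRNA of DNM1 thus stood higher in the steers pool while miR-199b was at a lower level in both steers libraries. TWIST1, the transcription factor that drives the miR-199a and miR-214 transcript, had 582 and 318 counts (log2 ratio 0.75, interval 0.55 to 0.95), and its relative TWIST2 had 39 and 52. SRF, which with its cofactors activates the miR-143 and miR-145 locus in smooth muscle, had 629 and 440 (log2 ratio 0.39), and the cofactor genes MKL1 and MKL2 had log2 ratios of -0.50 and -0.07.

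None of the 17 textbook targets of miR-143 and miR-145 was past the fold, and their median log2 ratio was 0.01, or -0.23 when scaled to total counts and -0.01 with TMM factors. They ran from -0.89 for OSBPL8, a lipid transfer protein gene and a target of miR-143 in insulin signalling (121 and 207 counts), to 0.67 for MYO6 (153 and 88 counts). KLF4, the target of miR-145 that opposes smooth muscle differentiation, had 1978 and 2183 counts (log2 ratio -0.26, interval -0.35 to -0.18). The TGF-beta receptor gene TGFBR2 had the most counts of this list, 4790 and 3944 (log2 ratio 0.16).

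Of the 17 textbook targets of miR-199a and miR-214, EZH2 alone was past the fold, and the median was -0.10. EZH2, the histone methyltransferase repressed by miR-214 in muscle, had 29 counts in steers and 93 in bulls (log2 ratio -1.79, interval -2.46 to -1.19). CAV1, which encodes the caveolin of fat cells and endothelium, had the most counts, 12066 and 9891 (log2 ratio 0.16). CTNNB1, which encodes beta-catenin, had 5259 and 3334 (log2 ratio 0.54). These mRNA pools and the miRNA libraries were not the same libraries, so no relation between a miRNA and a target could be tested over samples.

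**Figure D5:**
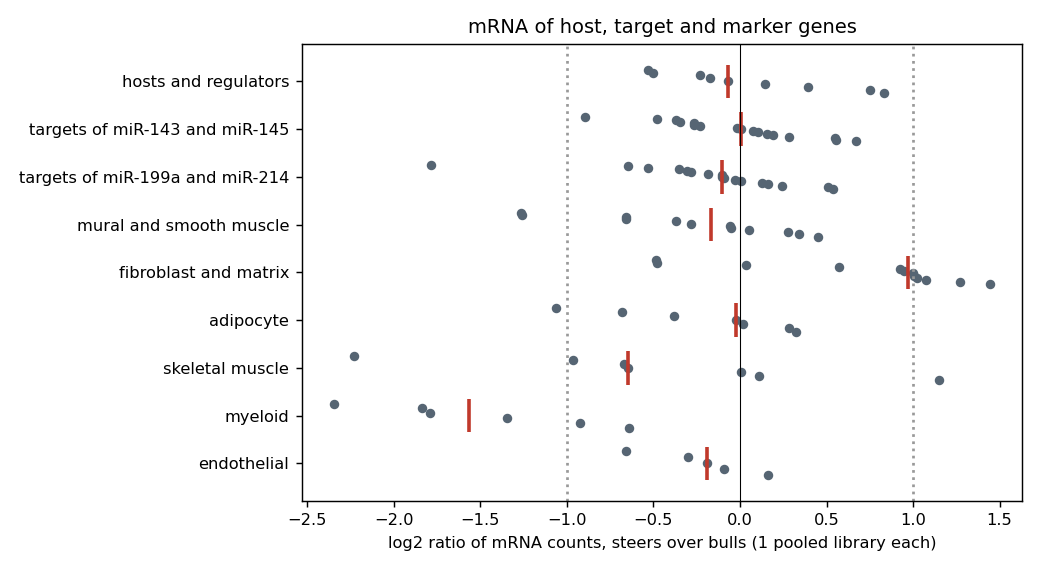
Log2 ratio of mRNA counts, steers over bulls, for each gene with at least 10 counts in 9 lists, 1 point per gene with the list median as a red bar and dotted lines at an absolute log2 ratio of 1. Points come from 1 pooled library per group, the medians of both target lists lie at 0.01 and -0.10, and the fibroblast and matrix list lies highest with a median of 0.97.

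Genes that mark the cells in which these miRNAs are known to be made did not move together. Of all genes with at least 10 counts, 6.44% were past the fold as higher in steers and 11.4% as lower. Of 14 mural and smooth muscle genes, 12 were in the table, 2 were past the fold, both lower in steers, and the median was -0.17. These were DES, the muscle intermediate filament gene that skeletal muscle also uses (3721 and 8207 counts, log2 ratio -1.26), and MCAM, a pericyte and endothelial adhesion gene (11693 and 25750, log2 ratio -1.26). The contractile genes ACTA2 and MYH11 had log2 ratios of -0.66 and -0.37, whereas TAGLN had 0.45. Of the 12 genes, 8 were below 0 and 4 above it, namely TAGLN, RGS5 (0.34), CSPG4 (0.28) and PDGFRB (0.05). Of 12 fibroblast and matrix genes, 5 were past the fold and all were higher in steers, with a median of 0.97. They were the collagen genes COL1A1 (log2 ratio 1.005), COL3A1 (1.27) and COL6A1 (1.44) and the matrix protein genes SPARC (1.08) and POSTN (1.02). The fibroblast genes DCN (0.04) and PDGFRA (-0.48) did not pass it. Several of the 5 lay only just past the fold. The median of the list was 0.73 when scaled to total counts and 0.95 with TMM factors, so the number past the fold depends on the scaling. The share of this list in all counts was 12.6% for steers and 7.36% for bulls.

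The next lists stand beside the same shares of all genes past the fold, 6.44% higher and 11.4% lower in steers. Of 7 adipocyte genes, the fatty acid carrier gene FABP4 was past the fold with a log2 ratio of -1.06, and the median was -0.02. The lipid droplet gene CIDEC had the most counts of them, 9931 and 7501 (0.28). Of 7 skeletal muscle genes, the slow myosin gene MYH7 was lower (-2.23) and the fast myosin gene MYH1 higher (1.15), with a median of -0.65, and the actin gene ACTA1 had the most counts, 13852 and 19910 (-0.65). Of 6 myeloid genes, 4 were past the fold and lower, with a median of -1.57, namely CD14 (-2.34), CD68 (-1.79), C1QA (-1.34) and CD74 (-1.84), the last with the most counts. Of 5 endothelial genes none was past the fold, with a median of -0.19 and the most counts for PECAM1, 4541 and 3723 (0.16). Their part in the levels of miR-143 and of the miR-199 and miR-214 members was not tested.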

How the data were processed

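Small RNA was sequenced in 2 libraries of steers and 2 of bulls, and mRNA in 1 pooled library per group. Groups were taken from the treatment label. The miRNA values, as deposited by the authors, are raw counts per sequence from trimmed small RNA reads aligned with BWA, per the labels and the study's methods. The mRNA values deposited by the authors are raw counts per gene from reads aligned to the bovine genome. The submitters' processing notes list a human build, GRCh37.p13, whose role is not given. The counting programs and the treatment of reads that match several sequences are not given in the sources used here.

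All miRNA sequences passing filterByExpr were fitted by edgeR 4.0.16 under R 4.3.3 (TMM scaling, then glmQLFit and glmQLFTest on the treatment), with Benjamini-Hochberg adjustment over 1073 sequences. An SE was derived from the size of the estimate over the root of its F statistic. Thresholds followed the study's methods, whose own tool was not used. Ratios were compared by exact permutation in scipy 1.17.1. mRNA log2 ratios used median-of-ratios factors (1.04 for steers and 0.959 for bulls) without a test. The fit was also run on simulated counts with independent libraries and a common spread. There edgeR called 164 of 200 changed sequences, whose median absolute log2 fold change was 2.02, and 4 unchanged ones. The members had smaller fold changes and some overlapping sequences, so this run does not measure how reliable their calls are. Alternatives were other scalings and filters, DESeq2 1.42.0, limma-voom (limma 3.58.1), a replicate block, known miRNAs alone, 1 sequence per overlapping set, each library left out and no fold threshold, and for mRNA other scalings, a prior of 5 counts and a lower minimum.

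The text names every member, the tested entries of other species or predicted for the same miRNAs, the 5 known miRNAs most correlated with miR-143 and with miR-199a-3p, and, of each mRNA list, the genes with the most counts and those past the fold, plus a few host, target and marker genes chosen for their known role after their values were seen. Members and lists were chosen with earlier results of these data known. Mature sequences of 766 of the 793 known bovine miRNAs came from the study's supplementary data, and no genome coordinates were used. Not every listed gene is reported singly here.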

Additional observations from a re-analysis of the deposited data

How the results depend on the processing

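Of the 8 members, 1 was called (miR-143). The number was 0 with total counts, with median-of-ratios factors, with miR-143 and miR-10b left out of the scaling, with no filter on low counts, with DESeq2, with limma-voom, with known bovine miRNAs alone and with 1 sequence per overlapping set, and 0 to 1 with 1 library left out. It was 3 with at least 50 counts in every library, where miR-199a-3p (log2 fold change -1.01, adjusted p = 0.0200) and miR-3604 (-1.03, 0.0185) were also called. That pair gives 1 observation. With known bovine miRNAs alone, miR-199a-3p (-0.88, edgeR adjusted p = 0.0277), miR-3604 (-0.90, 0.0275) and miR-199c (-0.69, 0.0491) missed a call on the fold threshold only. The log2 fold change of miR-143 lost its call at 0.72 (total counts), 1.25 (median-of-ratios and DESeq2), 1.20 (without miR-143 and miR-10b in the scaling), 1.12 (no filter), 1.16 (limma-voom), 1.33 (known alone) and 1.17 (1 per overlapping set). With 1 library left out it ran from 0.42 to 2.09, called only without the first bulls library. A group left with 1 library was assumed to vary like the other. miR-145 then ran from -0.54 to 1.32 and miR-199a-5p from -0.65 to 0.49, with turned signs. miR-199a-3p, miR-199b, miR-199c, miR-214 and miR-3604 stayed below 0 in every fit, though miR-214 shrank from -0.39 to -0.03, miR-199b from -0.62 to -0.22 and miR-199c from -0.80 to -0.47 without the first bulls library. The median mRNA ratio of miR-143 and miR-145 targets turned to -0.23 (total counts) and -0.0115 (TMM). The causes were not tested.

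Over all sequences, 152 were called (76 higher and 76 lower), against 1 with total counts, which moved the median of all tested from -0.07 to -0.56, 70 with no filter, 67 with at least 50 counts, 75 with known miRNAs alone, 252 with the replicate block and 26 to 151 with 1 library left out (61 without the first and 26 without the second steers library, and 99 without the second bulls library). Upper-quartile factors split 153 calls into 101 higher and 52 lower, with a median of 0.11. With the replicate block 2 members were called, miR-143 (1.16, edgeR adjusted p = 1.26e-04) and miR-3604 (-1.02, adjusted p = 0.0127). There miR-199a-3p had an adjusted p of 0.0138 with a fold just under the threshold. The labels do not say what the numbers share, so the main fit read the numbers as names. Same-numbered libraries had a correlation of 0.31 over sequences between their deviations from the group means (2 pairs). In every member, library 1 had a higher TMM CPM than library 2 in both groups. Without the TMM factors this order turned in both groups for miR-199a-3p, miR-199b and miR-3604, and in bulls alone for miR-199c and miR-214. The order therefore rests partly on the scaling. Whether same-numbered libraries share something was not tested. With 2 libraries per group, the spread between libraries and not depth limits these comparisons. The miR-199a arm ratio and the ratio of miR-143 to miR-145 kept their direction under the alternatives tried, which the other ratios were not put through. Leaving out 1 library could not have turned either direction, since neither ratio overlapped between the groups. For the ratio of miR-143 to miR-145 no other kind of alternative was tried.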
